A study of Mus musculus with 18 samples.

Results

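Kidneys of mice given a microbiota transfer labelled AOS were compared with kidneys of mice given a transfer labelled control. Every mouse in the comparison was an ICR mouse aged 10 weeks on a high fat diet with STZ, a combination called HS here. STZ is the usual abbreviation of streptozotocin, which destroys insulin-producing cells. The transfer is given in the labels as FMT, the abbreviation of faecal microbiota transplantation. HS_AOS_FMT is the HS group whose transfer carries the label AOS at 10 mg/kg, and HS_control_FMT is the HS group whose transfer carries the label control. The labels do not spell out AOS and do not describe the donors or the handling of the recipients' own microbiota. The comparison therefore rests on 6 of the 18 kidney RNA samples of the series, 3 in each group, which these labels assign. The other 12 samples are 3 each of HS without a transfer, HS given AOS itself at 10 mg/kg (HS_AOS), AOS at 10 mg/kg without diet or STZ, and control. All tests were made between the transfer groups, with the spread estimated from all 18 samples of the 6 groups. Beyond that, HS, control and HS_AOS are set beside the transfer groups only as levels. Of 19545 genes in the table, 11774 reached 1 FPKM in 3 or more of the 6 samples and were tested, and 7771 were left out. FPKM are fragment numbers scaled to transcript length and to the mapped fragments of the library. Nothing in the labels says whether the 3 samples of a group are 3 mice. The p-values thus describe only the spread between samples of the same group, pooled over all 18 samples, part of which may be technical.

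The 6 libraries listed between 15839 and 16447 genes above 0. No read counts were used, so their depth is unknown and no counting interval is given. HS_control_FMT 3 had the lowest median level of the 6 on the log2(FPKM + 1) scale, 3.34 against 3.50 to 3.60 in the others. Transcripts of the adrenal gland, which lies against the kidney, were present in some libraries: the summed level of 17 adrenal markers was 75.2, 144 and 554 FPKM in HS_AOS_FMT 1, 3 and 2, and 62.3 to 82.6 FPKM in HS_control_FMT, where 5 of the 17 were at 0 in all 3 libraries. In HS_AOS_FMT 1, where the sum lay within that range, 13 of the 17 were nevertheless above every HS_control_FMT library, such as Hsd3b1, an enzyme of steroid synthesis, at 2.39 against 0.19, 0.05 and 0.05 FPKM. Most of the sum in HS_AOS_FMT 1 and in HS_control_FMT was 1 gene, Fdx1, at 63.8 against 57.1, 58.1 and 59.9 FPKM. Npy added 23.4 FPKM in HS_control_FMT 1. The sums of these libraries therefore say little about the other adrenal markers. Defining kidney markers were high in all 6 libraries: the proximal tubule genes Slc34a1, a phosphate transporter, and Lrp2, the endocytic receptor megalin, were at 2104 to 2939 and 131 to 156 FPKM.

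Many of the genes described below belong to cellular responses to unfolded protein. Proteins that enter the secretory pathway fold in the endoplasmic reticulum (ER), helped by the chaperone BiP (the product of Hspa5), by disulfide isomerases and by lectin chaperones. When unfolded protein accumulates there, the sensors IRE1, ATF6 and PERK start the unfolded protein response: IRE1 splices the mRNA of the transcription factor XBP1, ATF6 is cleaved to an active factor, and PERK slows translation while the factor ATF4 is made. XBP1 and ATF6 raise ER chaperones and the machinery that returns misfolded proteins to the cytosol for degradation (ERAD), while ATF4 raises genes of amino acid supply. In the cytosol a separate response, driven by the heat shock factor HSF1, raises the HSP70 and HSP90 chaperones and their partners. In the kidney such responses are known from tubule cells exposed to toxins, protein overload or lack of oxygen.

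Genes of ER folding and several other stress genes were lower in HS_AOS_FMT than in HS_control_FMT, while a larger number of genes with smaller differences were higher. With limma and an adjusted p under 0.05 over all tested genes, 499 genes were called (4.24% of 11774), of which 365 were higher in HS_AOS_FMT (3.1%) and 134 lower (1.14%). These shares are the background for every count of called list members below. The gene lists and motifs were chosen with earlier results of these data known. An excess over these shares is therefore a description and not independent support. At an unadjusted p of limma under 0.05, 1832 of the 11774 genes were higher and 586 lower. Called genes with a difference of at least 2-fold were 13 higher and 26 lower. The HS_AOS_FMT values all lay above the HS_control_FMT values for 22.1% of the tested genes and all below them for 7.75%. The split of the calls depended on the scaling: with the medians of the libraries set equal, 270 genes were higher and 231 lower, after quantile normalization 178 and 147, and after each library was corrected for its trend in GC content and transcript length 300 and 227, so that the share of higher genes among the calls went from 73.1% to 53.9%, 54.8% and 56.9%. The median difference of all tested genes was 0.07 on the log2 scale as reported, -0.01 with medians set equal and 0.01 after quantile normalization. Genes called higher had a median GC content of 49.0% and a median transcript length of 2752.75 nt, and genes called lower 53.2% and 1721 nt, against 51.0% and 2092.5 nt over all tested genes. Leaving out 1 library brought the count to 138 (without HS_AOS_FMT 1), 64 (HS_AOS_FMT 2), 259 (HS_AOS_FMT 3), 165 (HS_control_FMT 1), 129 (HS_control_FMT 2) and 216 (HS_control_FMT 3). None of the 499 calls changed sign in any of these settings. For 498 of them the groups did not overlap, so leaving out a library could not have reversed the sign. For single genes, a call is said below to hold or to end without a library when it was kept or lost with that library alone left out, and the adjusted p of limma in that setting follows in parentheses.

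**Figure D1:**
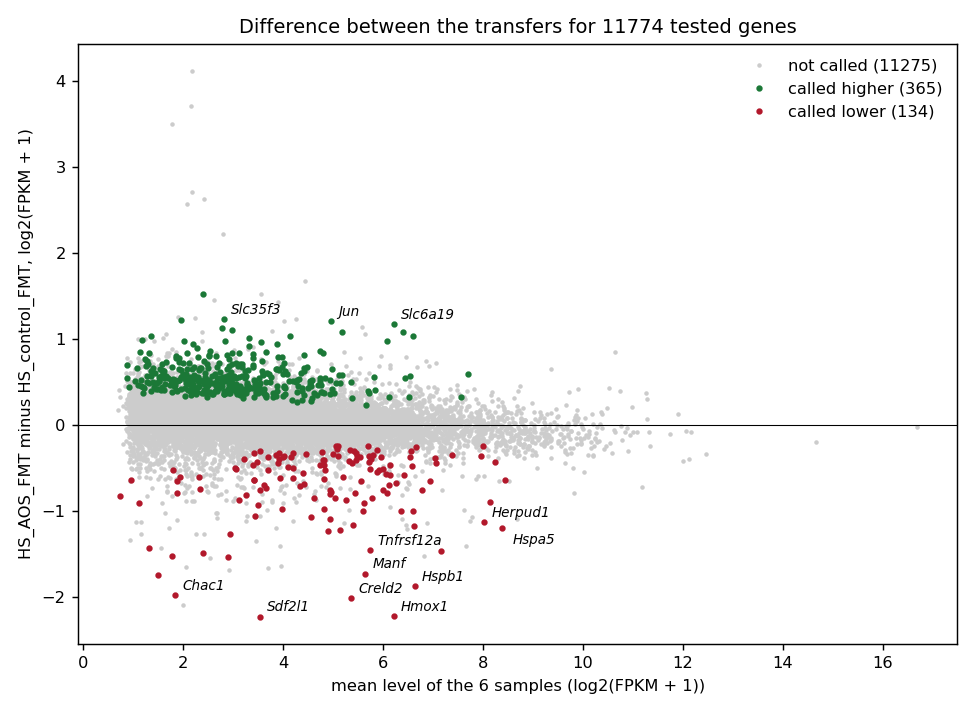
Difference between the transfers (HS_AOS_FMT minus HS_control_FMT, vertical axis, log2(FPKM + 1)) against the mean level of the 6 samples (horizontal axis, log2(FPKM + 1)), with 1 point per tested gene. The 365 genes called higher (green) lie mostly at low to middle levels and under 1 on the vertical axis, and the 134 called lower (red) reach further from 0, down to -2.23 for Sdf2l1 and Hmox1.

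The list of ER folding and the unfolded protein response held 31 genes, all tested. Of these, 15 were lower in HS_AOS_FMT, 0 were higher and 16 were not called, against 1.14% called lower among all tested genes. The median log2 difference of the list was -0.51, against 0.07 over all tested genes, 27 of the 31 differences were below 0, and for 26 of the 31 the groups did not overlap with HS_AOS_FMT below, against 7.75% of all tested genes. The count of members called lower was 17 after correction for GC content and length, 17 with medians set equal and 15 after quantile normalization. It fell to 8 without HS_AOS_FMT 2, to 10 without HS_AOS_FMT 1, HS_control_FMT 1 or HS_control_FMT 2, to 14 without HS_AOS_FMT 3 and to 13 without HS_control_FMT 3. With HS_AOS_FMT 1 as the only library of its group, the median difference of the list was -0.60. That library had the lowest adrenal sum of the HS_AOS_FMT libraries, although adrenal markers were present in it too.

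Among the central chaperones, Hspa5, which encodes BiP (chromosome 2, 34772090 to 34776529, like all gene positions here from RefSeq for GRCm38), was at 196, 193 and 270.4 FPKM in the HS_AOS_FMT libraries 1, 2 and 3 and at 483, 589 and 444 in HS_control_FMT 1, 2 and 3 (log2 difference -1.20, SE 0.219, adjusted p = 0.00942). The groups did not overlap, and the highest HS_AOS_FMT library, replicate 3, was still well below the lowest of HS_control_FMT. The call ended without HS_AOS_FMT 2 (adjusted p = 0.0614). Hsp90b1, which encodes GRP94, the HSP90 of the ER, was at 183, 201 and 233 FPKM against 376, 422 and 355 (log2 difference -0.90, SE 0.185, adjusted p = 0.0181). Its call held only without HS_AOS_FMT 3 (0.028) or without HS_control_FMT 3 (0.0368), with adjusted p from 0.0517 to 0.0861 when another library was left out. Hyou1, which exchanges the nucleotide of BiP, was at 18.2, 23.1 and 24.9 against 53.6, 56.1 and 48.7 FPKM (log2 difference -1.23, SE 0.169, adjusted p = 0.00325). It stayed called when any 1 of the 6 libraries was left out.

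The steepest differences of the list were in small partners of these chaperones. Sdf2l1, an ER protein that works with BiP (chromosome 16, 17130138 to 17132383), was at 3.42, 4.78 and 5.07 FPKM in HS_AOS_FMT and at 24.8, 28.1 and 20.5 in HS_control_FMT (log2 difference -2.23, SE 0.267, adjusted p = 0.00125). Creld2, an ER protein with EGF-like domains (chromosome 15, 88819646 to 88826681), was at 18.4, 18.8 and 21 against 78.2, 92.7 and 74.8 FPKM (log2 difference -2.02, SE 0.197, adjusted p = 0.000215). Both differences, of 4.7-fold and 4.05-fold on the log2(FPKM + 1) scale, were called without any 1 of the 6 libraries. Manf, a secreted factor that binds BiP, was at 24.5, 24.8 and 30.4 against 89.6, 105 and 78.3 FPKM (log2 difference -1.73, SE 0.244, adjusted p = 0.00325), again with every HS_AOS_FMT library far below every HS_control_FMT library. The J-domain partners of BiP Dnajb9 and Dnajb11 were at 39.7 ± 2.77 against 72.7 ± 5 FPKM (log2 -0.86, adjusted p = 0.00978) and at 56.6 ± 4.36 against 85.3 ± 6.29 (log2 -0.58, adjusted p = 0.0309; mean ± SD, n = 3). The call of Dnajb9 ended without HS_AOS_FMT 2 (0.0651), and that of Dnajb11 held only without HS_AOS_FMT 3 (0.0491), with values up to 0.144 without another library. These members, like Pdia6, Cdk2ap2, Calr, Canx, Sel1l, Edem1 and the sensors below, are described because they stand on the list, and they were chosen for mention after their values were seen.

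Disulfide isomerases, which form and reshuffle disulfide bonds in the ER, followed the same order of the groups. Pdia4 was at 31.1, 34.4 and 39.1 FPKM in HS_AOS_FMT and 65.9, 71.4 and 61 in HS_control_FMT (log2 difference -0.91, SE 0.151, adjusted p = 0.00604). Its call held without any 1 library. Pdia6 was at 81.8, 83.3 and 84.2 against 137, 150.1 and 136 FPKM (log2 difference -0.75, SE 0.167, adjusted p = 0.0246). Its call ended without any 1 of the 6 libraries (adjusted p 0.054 to 0.103). The lectin chaperones Calr and Canx, which hold glycoproteins while they fold, were not called: Calr was at 453 ± 36.8 against 644 ± 28.9 FPKM (log2 -0.51, adjusted p = 0.0882). Canx was at 110.4 ± 6.75 against 134 ± 7.8 (log2 -0.28, adjusted p = 0.216). In both, the groups did not overlap, with HS_AOS_FMT below.

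Of the ERAD genes on the list Herpud1, Syvn1 and Derl3 were lower as well. Herpud1, which gathers the ERAD complex in the ER membrane (chromosome 8, 94386429 to 94395371), was at 173, 164 and 188 FPKM in HS_AOS_FMT and 366, 427 and 362 in HS_control_FMT (log2 difference -1.13, SE 0.237, adjusted p = 0.02). Syvn1, the ubiquitin ligase of that complex, was at 19.1, 18.8 and 19 against 37.5, 44.2 and 34.3 FPKM (log2 difference -0.98, SE 0.144, adjusted p = 0.00394), with 3 nearly equal HS_AOS_FMT values. Derl3, a derlin of the same complex, was at 1.31, 1.28 and 0.54 against 3.63, 7.24 and 4.08 FPKM (log2 difference -1.53, SE 0.261, adjusted p = 0.00707). Syvn1 and Derl3 were called without any 1 of the 6 libraries, and Herpud1 only without HS_AOS_FMT 3 (0.0385) or HS_control_FMT 3 (0.0447), with values up to 0.0995 otherwise. Sel1l, the partner of the Syvn1 ligase, was at 28.6 ± 2.8 against 40.9 ± 3.66 FPKM (log2 -0.50, adjusted p = 0.0769). Edem1, which marks misfolded glycoproteins for ERAD, was at 19.7 ± 2.11 against 22.9 ± 0.588 (log2 -0.21, adjusted p = 0.551), and neither was called. Cdk2ap2, a small protein that associates with the cell cycle kinase CDK2, was also on the list and was lower, at 50.2 ± 4.72 against 88 ± 11.3 FPKM (log2 -0.79, adjusted p = 0.00887).

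Of the regulators, Xbp1 was at 54.3, 52.7 and 52.8 FPKM in HS_AOS_FMT and 97.9, 96.9 and 69.5 in HS_control_FMT (log2 difference -0.70, SE 0.144, adjusted p = 0.0182), with HS_control_FMT 3 lowest of its group and the call ending without HS_AOS_FMT 1 (0.0548), HS_AOS_FMT 2 (0.0861), HS_control_FMT 1 (0.0661) or HS_control_FMT 2 (0.0724). The value is the total for the gene, so the spliced form was not measured. The 3 sensors themselves were not called. Eif2ak3, which encodes PERK, was at 7.37, 8.21 and 7.37 against 10.6, 12.6 and 9.46 FPKM (log2 -0.45, adjusted p = 0.0513), Atf6 at 7.68, 8.13 and 8.48 against 7.77, 6.75 and 7.73 (log2 0.11, adjusted p = 0.523) and Ern1, which encodes IRE1, at 2.54, 3.7 and 2.99 against 2.02, 2.33 and 2.01 (log2 0.38, adjusted p = 0.168). After correction for GC content and length Eif2ak3 was called lower (adjusted p = 0.00455). Only Eif2ak3 of the 3 had all HS_AOS_FMT values below those of HS_control_FMT, the Atf6 values overlapped, and the Ern1 values of HS_AOS_FMT were all above.

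**Figure D2:**
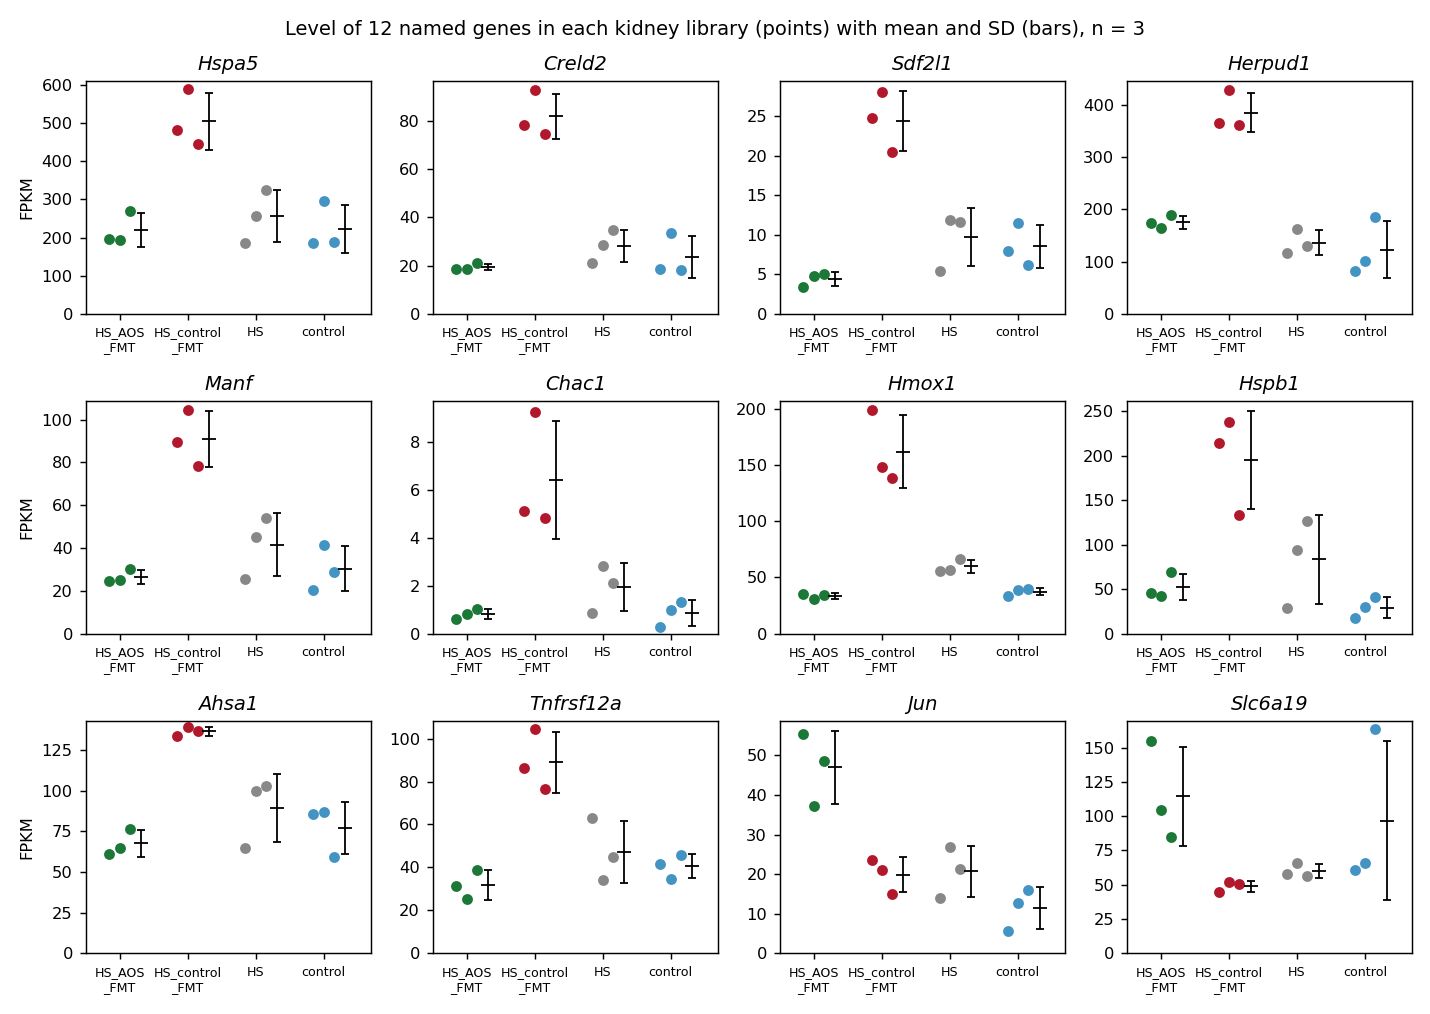
Level of 12 named genes (vertical axes, FPKM, each from 0) in the 3 libraries of HS_AOS_FMT, HS_control_FMT, HS and control (points), with mean and SD (bars). For the first 10 genes, from Hspa5 to Tnfrsf12a, every HS_control_FMT library lies above every HS_AOS_FMT library, and for Jun and Slc6a19 every HS_AOS_FMT library lies above. Such a separation is shared by 498 of all called genes.

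Short DNA elements of the genes called lower were looked up in the RefSeq promoter windows of build GRCm38.p6, which reach from 250 bases before to 50 bases after an annotated start and were found for 9454 of the 11774 tested genes. The ER stress response element (ERSE), the site of ATF6 with NF-Y, has CCAAT, a spacer of 9 bases and CCACG. Searched on both strands, it was present in 7 of the 109 windows of genes called lower (6.42%), in 0 of the 286 of genes called higher and in 17 of all 9454 (0.18%). The 7 genes were Syvn1, Hsp90b1, Hspa5, Creld2, Acnat2, Derl3 and Pdia6, of which all but Acnat2 stand on the ER list. Of the whole ER list, 10 of the 27 tested genes with a window held an ERSE (37%). Among them were Dnajc3, Calr, Canx and Ero1lb, which were not called. Of the ER list genes called lower, 6 of 13 held it (46.2%), so the element is common on the list whether or not a gene was called. The second form, ERSE-II, has ATTGG, 1 base and CCACG, and was present in 2 of the 109 windows (1.83%), those of Herpud1 and Dnajb11, in 0 of the 286 and in 9 of all 9454 (0.0952%). The matches are printed here because they are shared by 8 of the 13 ER list genes called lower that have a window. Each is written 5′ to 3′ on the strand that reads CCAAT to CCACG or ATTGG to CCACG, with the fixed bases in capitals, and the genome position and strand follow the name.
Hspa5 (chr2:34772025-34772043, plus strand): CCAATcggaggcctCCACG
Creld2 (chr15:88819520-88819538, minus strand): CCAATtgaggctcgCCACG
Hsp90b1, far site (chr10:86705638-86705656, minus strand): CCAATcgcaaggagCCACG
Hsp90b1, near site (chr10:86705533-86705551, plus strand): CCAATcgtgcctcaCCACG
Pdia6 (chr12:17266491-17266509, plus strand): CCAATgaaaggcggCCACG
Syvn1 (chr19:6046532-6046550, plus strand): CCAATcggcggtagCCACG
Derl3 (chr10:75893242-75893260, minus strand): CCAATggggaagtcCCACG
Herpud1 (chr8:94386377-94386387, plus strand): ATTGGgCCACG
Dnajb11 (chr16:22857852-22857862, plus strand): ATTGGcCCACG
The spacers differ from gene to gene, while the outer bases are fixed by the search. The Hspa5 match starts 65 bases before the annotated start and the Syvn1 match 44 bases before it, the Creld2 match lies on the other strand from 126 to 108 bases before the start, and the Dnajb11 match lies 7 to 17 bases after the start. A match of letters is a description and does not show that a factor was bound in these kidneys. The 250 bases before the start are shown for Hspa5, the most abundant ER gene called, and Creld2, the one with the smallest p, with the match in capitals, in the direction of transcription.
Hspa5 (chr2:34771840-34772089, plus strand): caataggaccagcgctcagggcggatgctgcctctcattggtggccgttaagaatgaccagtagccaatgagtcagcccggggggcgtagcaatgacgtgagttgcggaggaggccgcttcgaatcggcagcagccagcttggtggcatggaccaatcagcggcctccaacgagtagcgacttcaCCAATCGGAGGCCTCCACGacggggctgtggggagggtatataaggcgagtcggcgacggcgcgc
Creld2 (chr15:88819396-88819645, plus strand): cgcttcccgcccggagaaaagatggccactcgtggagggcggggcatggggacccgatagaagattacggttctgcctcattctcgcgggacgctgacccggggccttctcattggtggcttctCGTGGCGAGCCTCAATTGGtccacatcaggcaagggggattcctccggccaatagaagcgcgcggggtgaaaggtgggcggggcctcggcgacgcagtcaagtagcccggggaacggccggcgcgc

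**Figure D3:**
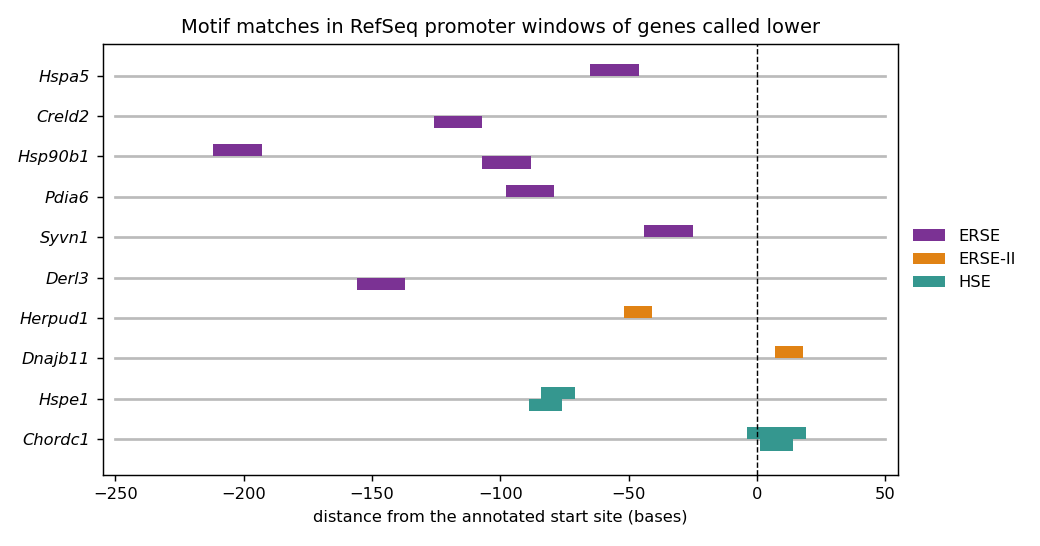
Matches to 3 elements in the promoter windows of 10 genes called lower, by distance in bases from the annotated start site (horizontal axis, start site at 0). Boxes above a line are on the strand of the gene and boxes below it on the other strand, and all 7 ERSE matches (purple) lie before the start, from 212 to 26 bases away.

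Other elements were searched in the same windows, both strands included. The heat shock element (HSE), alternating GAA, TTC and GAA units with spacers of 2 bases, was present in 3 of the 109 windows of genes called lower (2.75%; Chordc1, Acnat2 and Hspe1), 2 of the 286 of genes called higher (0.699%) and 0.561% of all windows. Of the heat shock list, 4 of the 16 tested genes with a window held an HSE (25%), against 2 of the 7 called lower (28.6%). Hspe1 and Chordc1 are the called members of the heat shock list with a match, and 1 of the 3 overlapping matches of Chordc1 is shown.
Hspe1 (chr1:55088059-55088071, minus strand): GAAggTTCtaGAA
Hspe1 (chr1:55088064-55088076, plus strand): GAAccTTCcgGAA
Chordc1 (chr9:18292263-18292275, plus strand): GAAcgTTCggGAA
The ATF4 composite element TGATGNAAT was present in 3 of the 109 (2.75%; Iars, D5Ertd579e and Aars), against 0.699% of genes called higher and 0.571% of all windows. The antioxidant element TGACNNNGC was in 21.1% of genes called lower and 17% of all windows, the E-box CACGTG in 14.7% and 11.8%, AP-1 (TGACTCA) in 6.42% and 4.48%, CRE (TGACGTCA) in 5.5% and 3.5%, UPRE (TGACGTGG) in 0.917% and 1%, and the D-box TTATGNAA in 1.83% and 2.55%. The Hspa5 window holds an AP-1 match in addition to the ERSE, the Herpud1 window an antioxidant match and the Derl3 window an E-box.

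The list of the ATF4 branch had 27 tested genes of 31, of which 2 were lower, 1 was higher and 24 were not called, against 1.14% called lower and 3.1% higher among all tested genes. Its median log2 difference was -0.35, against 0.07 over all tested genes, and 23 differences were below 0. Chac1, an enzyme that breaks down glutathione and is raised by ATF4 and CHOP (chromosome 2, 119351242 to 119354326), was at 0.62, 0.8 and 1.03 FPKM in HS_AOS_FMT and 5.12, 9.25 and 4.82 in HS_control_FMT (log2 difference -1.98, SE 0.278, adjusted p = 0.00325). All 3 HS_AOS_FMT libraries were near 1 FPKM, so this difference is on a scale where the added 1 counts, and the call held without any 1 library. Sars, the cytosolic seryl-tRNA synthetase, was at 38.5, 36.2 and 37.1 against 42.2, 50.8 and 46.7 FPKM (log2 difference -0.31, SE 0.0811, adjusted p = 0.0435). Vldlr, a lipoprotein receptor, was higher at 14.5, 16.2 and 15.5 against 13.1, 10.7 and 12.2 (log2 difference 0.34, SE 0.078, adjusted p = 0.0301). Both small differences were called only without HS_control_FMT 1 (0.046 and 0.0361) among the 6 omissions, and Vldlr was not called after correction for GC content and length (adjusted p = 0.207).

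The transcription factors of that branch were not called. Atf4 was at 97.1, 81.3 and 95 FPKM in HS_AOS_FMT and 117, 165 and 121 in HS_control_FMT (log2 -0.54, adjusted p = 0.0782), without overlap. Ddit3, which encodes CHOP, was at 25, 15.9 and 35.6 against 55, 76.7 and 38.6 (log2 -1.14, adjusted p = 0.16), with HS_AOS_FMT 3 close to HS_control_FMT 3. Atf3, a stress-induced factor, overlapped between the groups, at 5.48, 2.6 and 27.7 against 11.8, 29.7 and 9.97 FPKM (log2 -0.90, adjusted p = 0.446). Asns, the asparagine synthetase, was at 3.91 ± 0.798 against 5.94 ± 1.08 FPKM (log2 -0.50, adjusted p = 0.423), Trib3, a pseudokinase that binds ATF4, at 0.643 ± 0.176 against 1.22 ± 0.215 (log2 -0.43, adjusted p = 0.399), and the stress hormone Gdf15 at 12.2 ± 2.65 against 21 ± 6.35 (log2 -0.71, adjusted p = 0.442). The HS_AOS_FMT mean was below the HS_control_FMT mean in each of these 6 genes, of which Trib3 was tested only through its HS_control_FMT libraries, where it is high.

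Hmox1, the heme oxygenase that breaks heme down to biliverdin, iron and carbon monoxide (chromosome 8, 75093618 to 75100593), had the smallest adjusted p of all tested genes. It was at 35.3, 30.6 and 34.1 FPKM in the HS_AOS_FMT libraries and at 199, 148 and 139 in the HS_control_FMT libraries (log2 difference -2.23, SE 0.159, adjusted p = 5.17e-06), a difference of 4.69-fold. The lowest HS_control_FMT library was more than 100 FPKM above the highest HS_AOS_FMT library, and the call held without any 1 library (adjusted p 2.37e-05 to 0.000103) and with HS_AOS_FMT 1 as the only library of its group. Among the 27 tested genes of NRF2 targets and heme handling, 2 were lower, 0 higher and 25 not called, against 1.14% called lower among all tested genes. The median log2 difference of the list was -0.11. Maff, a small MAF protein that pairs with NRF2, was the other called gene, at 1.27, 1.87 and 3.69 against 10.3, 10.6 and 4.21 FPKM (log2 difference -1.50, SE 0.358, adjusted p = 0.0317). HS_AOS_FMT 3 was next to HS_control_FMT 3 there, and the call held only without one of those libraries (0.0303 and 0.0199, against 0.105 to 0.135 without another).

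The other NRF2 targets on the list were not called. Nqo1, a quinone reductase, was at 19.6, 17.3 and 20.4 FPKM in HS_AOS_FMT and 16.6, 17.2 and 20.7 in HS_control_FMT (log2 0.07, adjusted p = 0.912), with overlapping groups. Gclm, a subunit of the enzyme that starts glutathione synthesis, was at 139 ± 4.57 against 151 ± 3 (log2 -0.12, adjusted p = 0.56), Srxn1, the sulfiredoxin, at 14.1 ± 0.899 against 20.4 ± 4.57 (log2 -0.48, adjusted p = 0.323), and the ferritin heavy chain Fth1 at 4458 ± 177 against 4717 ± 94.3 (log2 -0.08, adjusted p = 0.612). Nfe2l2, which encodes NRF2, was at 42.3 ± 1.67 against 48.3 ± 9.13 FPKM (log2 -0.17, adjusted p = 0.594). Bach1, the repressor of Hmox1 that heme releases, was at 5.54 ± 0.592 against 5.25 ± 0.698 (log2 0.07, adjusted p = 0.807; chosen after its values were seen). Hemoglobin transcripts, a sign of blood in the tissue, overlapped between the groups: Hba-a1 was at 3635, 2985 and 4021 FPKM against 5989.7, 6085 and 2900.5 (log2 -0.43, adjusted p = 0.65).

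Of 22 heat shock chaperones, all tested, 7 were lower in HS_AOS_FMT, 0 higher and 15 not called, against 1.14% called lower among all tested genes. All 22 differences were below 0, the median was -0.89, and for 16 the groups did not overlap, against 7.75% of all tested genes. The count of 7 was 6 without HS_AOS_FMT 3, 5 without HS_control_FMT 3, 3 without HS_AOS_FMT 1, HS_control_FMT 1 or HS_control_FMT 2, and 1 without HS_AOS_FMT 2. With control 3, a library of another group that stands apart, left out of the estimate of spread, it was 13. Ahsa1, which activates the ATPase of HSP90, was at 61.1, 65.1 and 76.6 FPKM against 134, 139 and 137 (log2 difference -1.01, SE 0.168, adjusted p = 0.00604), and was called without any 1 library. Stip1, which joins HSP70 to HSP90, was at 48.8, 54 and 70.2 against 115, 121 and 111 (log2 difference -1.01, SE 0.181, adjusted p = 0.00887). Hspe1, the co-chaperonin of mitochondria, was at 275, 248 and 308 against 438, 424 and 436 (log2 difference -0.65, SE 0.111, adjusted p = 0.00707). Both calls ended without HS_AOS_FMT 2 (0.0539 and 0.0515).

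Hspb1, the small heat shock protein HSP27 (chromosome 5, 135887919 to 135889563), had the steepest difference of the list, at 45.6, 42.1 and 68.8 FPKM in HS_AOS_FMT and 214, 239 and 134 in HS_control_FMT (log2 difference -1.88, SE 0.438, adjusted p = 0.0308). HS_control_FMT 3 was the lowest of its group, and the call held without it (0.0419) or without HS_AOS_FMT 3 (0.0425) and ended without HS_AOS_FMT 1 (0.101), HS_AOS_FMT 2 (0.135), HS_control_FMT 1 (0.0865) or HS_control_FMT 2 (0.0963). Chordc1, a partner of HSP90, was at 23.1, 26.1 and 33.5 against 64.5, 67.3 and 56 FPKM (log2 difference -1.17, SE 0.289, adjusted p = 0.0365). Its call ended without any 1 library (adjusted p 0.0509 to 0.144). Hspa4l, of the HSP110 family, was at 10.2 ± 1.75 against 21.1 ± 2.78 (log2 -0.98, adjusted p = 0.0167), and Bag3, a co-chaperone of HSP70 chosen after its values were seen, at 22.9 ± 5.31 against 39.3 ± 5.89 (log2 -0.76, adjusted p = 0.0417). These 2 calls held without HS_AOS_FMT 3 (0.0242 and 0.0326), that of Hspa4l also without HS_control_FMT 3 (0.0306), and ended without any other library.

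The inducible HSP70 genes, the classical targets of HSF1, were not called. Hspa1b was at 141, 90.7 and 235 FPKM in HS_AOS_FMT and 353, 380.1 and 234 in HS_control_FMT (log2 -1.12, adjusted p = 0.522). Hspa1a was at 54.3, 34.4 and 93.5 against 147, 142 and 83.8 (log2 -1.09, adjusted p = 0.529). These 2 genes are near-identical, so the division of reads between them is uncertain. In both, HS_AOS_FMT 3 and HS_control_FMT 3 overlapped while the other libraries did not. Hsph1, of the HSP110 family, was at 51.5, 55.2 and 96.7 against 203, 197 and 171 (log2 -1.53, adjusted p = 0.0515), just above the threshold, and the constitutive Hspa8 at 1826 ± 348 against 2976 ± 140.4 (log2 -0.72, adjusted p = 0.0628). Hsf1 itself was at 15.2 ± 1.31 against 19.1 ± 1.26 FPKM (log2 -0.31, adjusted p = 0.141), also without overlap and also chosen after its values were seen. Of 31 proteasome subunits 1 was lower, against 1.14% of all tested genes, 30 were not called and the median was -0.03. It was Psmb3, of the core particle, at 236 ± 9.09 against 279 ± 8.04 FPKM (log2 -0.25, adjusted p = 0.0434). That call ended without any 1 library (adjusted p 0.0837 to 0.2) and after correction for GC content and length (0.116).

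Circadian and rapidly induced genes showed single calls in both directions. Nfil3, a repressor of the clock output, was lower at 2.45, 3.67 and 4.22 FPKM against 14.1, 15.2 and 7.53 (log2 difference -1.54, SE 0.405, adjusted p = 0.0445). Hlf, an activator that binds the same sites, was higher at 33.6, 39.5 and 34.9 against 23.7, 23.9 and 27 (log2 difference 0.52, SE 0.124, adjusted p = 0.0317). The call of Nfil3 held only without HS_control_FMT 3 (0.0497) and that of Hlf ended without any 1 of the 6 (adjusted p 0.051 to 0.156). Neither was called after correction for GC content and length (adjusted p = 0.0508 and 0.095). Of the 21 clock genes tested, 1 was higher, 1 lower and 19 were not called, against 3.1% higher and 1.14% lower among all tested genes. The related activators Tef and Dbp were at 116, 99.9 and 103 against 68.2, 76.9 and 87.8 (log2 0.46, adjusted p = 0.37) and 123, 85.5 and 65.2 against 46.3, 49 and 74.3 FPKM (log2 0.67, adjusted p = 0.723). The core gene Arntl was at 2.01, 3.4 and 2.06 against 6.81, 3.76 and 2.8 (log2 -0.60, adjusted p = 0.526), Per1 at 7.88, 9.73 and 13 against 15.2, 16.5 and 11.7 (log2 -0.48, adjusted p = 0.665). Per3 was at 7.59, 8.26 and 6.62 against 5.07, 4.96 and 5.1 (log2 0.49, adjusted p = 0.552). The time of day of collection is not given in the labels, and its part in these values was not tested.

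Jun, an immediate early transcription factor, was higher in HS_AOS_FMT at 55.4, 37.1 and 48.5 FPKM against 23.6, 21.1 and 15.1 (log2 difference 1.20, SE 0.3, adjusted p = 0.0375). Its call ended without any 1 of the 6 libraries (adjusted p 0.064 to 0.131). Its partner Fos was at 6.92, 3.22 and 10.6 against 2.11, 3.23 and 1.21 FPKM (log2 1.25, adjusted p = 0.0916). Egr1 was at 17.7, 7.03 and 53 against 10.5, 9.36 and 1.86 (log2 1.52, adjusted p = 0.28), both not called and both lowest in HS_AOS_FMT 2 within that group. Of 20 immediate early genes tested, 1 was higher, 1 (Maff) lower and 18 not called, against 3.1% higher and 1.14% lower among all tested genes. Among 14 glucocorticoid-induced genes and metallothioneins, 2 were lower, against 1.14% of all tested genes, and 12 not called. With 1 library left out 0 or 1 of the list was called lower. Zbtb16, a zinc finger repressor strongly induced by glucocorticoids, was at 0.26, 0.83 and 0.48 against 4.6, 3.12 and 1.95 FPKM (log2 difference -1.44, SE 0.23, adjusted p = 0.00525). Zbtb16 passed the filter on low values only through its HS_control_FMT libraries. Fkbp5, an HSP90 partner induced by the same hormones, was at 25.5, 27.9 and 32.8 against 54, 36.5 and 43.5 (log2 difference -0.61, SE 0.163, adjusted p = 0.0466). The call of Fkbp5 ended without any 1 library (adjusted p 0.0528 to 0.17). Tsc22d3, another glucocorticoid target, was at 31 ± 5.18 against 38.7 ± 0.786 FPKM (log2 -0.33, adjusted p = 0.525), and the metallothionein Mt1 at 258 ± 49.7 against 404 ± 45.2 (log2 -0.66, adjusted p = 0.492). The summed level of the adrenal markers, from the gland that makes these hormones, was higher in HS_AOS_FMT 2 and 3 than in every HS_control_FMT library, 13 of the 17 were higher also in HS_AOS_FMT 1, and their part in these values was not tested.

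Tnfrsf12a, the receptor of the cytokine TWEAK and a marker of injured tubules, was lower at 31.2, 25.4 and 38.9 FPKM against 86.2, 104 and 76.3 (log2 difference -1.46, SE 0.203, adjusted p = 0.00325). That call held without any 1 library. It was the only called gene of 15 tubular injury genes tested, whose median was -0.25, against 1.14% called lower among all tested genes. Havcr1, the kidney injury molecule KIM-1, was at 2, 1.98 and 4.5 against 1.88, 4.26 and 2.62 FPKM (log2 -0.05, adjusted p = 0.976), Lcn2, the lipocalin NGAL, at 2.25, 3.07 and 6.77 against 5.07, 7.96 and 3.17 (log2 -0.38, adjusted p = 0.792), and osteopontin, encoded by Spp1, at 359.6, 310.3 and 375 against 334, 480.1 and 236 (log2 0.05, adjusted p = 0.976). The groups overlapped in all 3. Tmem252, which encodes a membrane protein, was among the 12 lowered genes with the largest difference, at 97.4, 62.8 and 103 against 239.6, 202 and 279 FPKM (log2 difference -1.47, SE 0.253, adjusted p = 0.00724). Its call ended without HS_AOS_FMT 2 (0.0515). S100a8, a calprotectin subunit made by neutrophils, was at 0.67, 0.34 and 0.66 against 4.52, 8.34 and 1.76 FPKM (log2 difference -1.75, SE 0.43, adjusted p = 0.0344). The summed level of 10 neutrophil markers was 2.47 to 3.87 FPKM in HS_AOS_FMT and 6.28 to 14.8 in HS_control_FMT, with 3 of the 10 at 0 in all libraries of each group and 2 high enough to be tested. The call of S100a8 ended without any HS_AOS_FMT library (adjusted p 0.0698 to 0.151), and without 1 HS_control_FMT library the gene did not pass the filter on low values.

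The genes that were higher in HS_AOS_FMT had no list of comparable size among those used. Slc35f3, a solute carrier (chromosome 8, 126138398 to 126395987), had the largest difference of the named genes called higher, at 10.9, 10.5 and 8.28 FPKM against 3.37, 4.59 and 3.02 (log2 difference 1.23, SE 0.19, adjusted p = 0.00485). Afap1l2, an adaptor protein that binds actin, was at 9.75, 11.6 and 10.2 against 4.26, 4.45 and 4.38 (log2 difference 1.10, SE 0.132, adjusted p = 0.00125), with 3 nearly equal HS_control_FMT values. Pde9a, a phosphodiesterase that breaks down cGMP, was at 25.4, 26.5 and 21 against 11.8, 10.5 and 11.7 (log2 difference 1.03, SE 0.116, adjusted p = 0.000859). For these 3 genes all HS_AOS_FMT libraries lay above all HS_control_FMT libraries, which the rule for naming them required. The calls held without any 1 library and after correction for GC content and length (adjusted p between 0.000211 and 0.000947).

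Rsrp1, a nuclear protein rich in arginine and serine, was at 124 ± 24 FPKM against 57.7 ± 5.64 (log2 1.08, adjusted p = 0.00412), and the transcription factor Tfcp2 at 13.2 ± 1.48 against 6.01 ± 0.285 (log2 1.01, adjusted p = 0.00485), both called without any 1 library. Akr1e1, an aldo-keto reductase, was at 52 ± 5.94 against 24.6 ± 7.56 (log2 1.08, adjusted p = 0.0136). Its call ended without HS_AOS_FMT 2 (0.0721), HS_control_FMT 1 (0.0518) or HS_control_FMT 3 (0.051). Tbxas1, the thromboxane synthase, was at 9.42 ± 2.62 against 3.87 ± 1.63 (log2 1.12, adjusted p = 0.0328). That call held only without HS_AOS_FMT 3 (0.0326) or HS_control_FMT 2 (0.0395). Cit, the citron kinase of cell division, was at 2.14, 2.61 and 1.88 against 0.76, 0.64 and 0.45 FPKM (log2 0.99, adjusted p = 0.00642). Tipin, a partner of the replication fork protein Timeless, was at 4.6, 5.61 and 3.92 against 1.85, 2.05 and 1.75 (log2 0.98, adjusted p = 0.029). Both are at low levels, Tipin was called only without HS_AOS_FMT 3 (0.0411), and Cit passed the filter on low values only with all HS_AOS_FMT libraries present. Of 15 genes of the cell cycle and replication that were tested 0 were called by limma in either direction, and the median was 0.37. At an unadjusted p under 0.05, 2 of them were higher, against 1832 higher among all 11774 tested genes. Mki67 and Top2a, which mark dividing cells, were below the filter at 0.29 to 1.36 and 0.23 to 1.06 FPKM.

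Transport genes of the proximal tubule gave single calls. Slc6a19, the sodium-coupled transporter that takes up neutral amino acids at the brush border (chromosome 13, 73679745 to 73700780), was higher at 155, 104 and 84.7 FPKM against 44.4, 51.9 and 50.5 (log2 difference 1.17, SE 0.298, adjusted p = 0.0405). HS_AOS_FMT 1 was highest, and the call held only without HS_AOS_FMT 3 (0.0459), with adjusted p from 0.0928 to 0.15 without another library. Slc36a1, a proton-coupled amino acid transporter, was at 39.6, 41.7 and 34.8 against 27.8, 26.5 and 27.9 (log2 difference 0.48, SE 0.114, adjusted p = 0.0309), with the call again held only without HS_AOS_FMT 3 (0.0353) and not after correction for GC content and length (0.102). These were the 2 called of 20 amino acid transporters, whose median was 0.17, against 3.1% called higher among all tested genes. Slc3a1 and Slc7a9, which together carry cystine, were at 258 ± 13.1 against 259 ± 11.6 (log2 -0.01, adjusted p = 0.981) and 81.7 ± 13.7 against 57.7 ± 5.91 FPKM (log2 0.49, adjusted p = 0.187). Of 20 organic ion transporters 0 were called by limma and 3 had an unadjusted p under 0.05, a level reached by 1832 higher and 586 lower genes among all 11774 tested. Of 24 tested genes for sensing and moving microbial metabolites 0 were called, and 5 higher genes and 1 lower gene had an unadjusted p under 0.05. In that list the bile acid transporter Slc10a2 was at 11.9, 22.3 and 22.2 against 30.2, 34.2 and 30.5 (log2 -0.77, adjusted p = 0.0636, and 0.0224 when corrected for GC content and length), the xenobiotic receptor Nr1i2 at 1.02, 1.74 and 1.33 against 0.56, 0.59 and 0.21 (log2 0.70, adjusted p = 0.1; tested only through its HS_AOS_FMT libraries), and the lactate and short-chain fatty acid carrier Slc5a8 at 45.8 ± 7.58 against 46.4 ± 7.18 (log2 -0.02, adjusted p = 0.975).

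In the renin-angiotensin system, Agtr1a, the type 1a receptor of angiotensin II (chromosome 13, 30336356 to 30382867), was higher at 27.1, 28.9 and 22.4 FPKM against 16.9, 16.6 and 15.1 (log2 difference 0.66, SE 0.114, adjusted p = 0.00724). Its call ended without HS_AOS_FMT 2 (0.0531). Ren1, which encodes renin, was at 61.3, 69.6 and 80.7 against 27.5, 35.5 and 31.5 FPKM (log2 difference 1.14, SE 0.32, adjusted p = 0.0586): the groups did not overlap, and the gene was not called. Agt, the precursor of angiotensin, and Ace, its converting enzyme, were at 37.2 ± 4.36 against 47.2 ± 11.8 (log2 -0.31, adjusted p = 0.707) and 70.7 ± 10.8 against 78.9 ± 25.5 FPKM (log2 -0.12, adjusted p = 0.921). Of 11 genes tested 1 was called, against 4.24% of all tested genes.

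Lipid and glucose genes showed few differences past the threshold. Insig1, which holds the regulator of cholesterol synthesis in the ER, was higher in HS_AOS_FMT at 13, 17.8 and 15.6 against 9.3, 7.47 and 5.76 (log2 difference 0.96, SE 0.242, adjusted p = 0.0379). The call of Insig1 ended without any 1 of the 6 (adjusted p 0.0556 to 0.17), and 19 of 21 genes of the cholesterol list were not called. Of all tested genes 4.24% were called. Fatty acid and triglyceride synthesis (20 genes), fatty acid oxidation (33), glycolysis (15), glucose handling (15), insulin and FOXO signalling (17), the respiratory chain (29) and cytosolic ribosomal proteins (29) had 0 calls by limma. At an unadjusted p under 0.05 these lists held, in that order, 2 genes higher, 1 higher, 1 higher with 1 lower, 0, 2 higher, 2 lower and 3 lower. Among all 11774 tested genes 1832 were higher and 586 lower at that level. The gluconeogenic enzyme Pck1 was at 1259 ± 181 against 1549.5 ± 351 FPKM (log2 -0.28, adjusted p = 0.719), and the glucose transporter SGLT2, encoded by Slc5a2, at 262 ± 56.3 against 219 ± 35 (log2 0.25, adjusted p = 0.54).

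Of 23 interferon-stimulated genes, 6 of MHC class II and 13 of complement 0 were called by limma and 0 had an unadjusted p under 0.05. Of 19 chemokine and NF-kB target genes 0 were called by limma, 5 were lower and 0 higher at an unadjusted p under 0.05, and the list's median was -0.39. Among all 11774 tested genes 586 were lower and 1832 higher at that level. Nfkb2 and Relb, subunits of NF-kB, were at 6.13, 5.68 and 5.97 against 11.1, 14 and 7.18 FPKM (log2 -0.72, adjusted p = 0.0555) and 4.06, 4.6 and 3.12 against 7.23, 11.9 and 5.03 (log2 -0.82, adjusted p = 0.145), without overlap, and Nfkb2 was called lower after correction for GC content and length (adjusted p = 0.0121). The MHC class II genes, which present antigen, had a median of -0.75 over 6 tested genes and 0 calls, and this rested on HS_control_FMT 2: H2-Ab1 was at 57.9, 64.9 and 51.6 against 69.4, 489 and 65.2 FPKM (log2 -1.16, adjusted p = 0.342). Cd74 was at 151, 172 and 130.2 against 179, 1073 and 167 (log2 -1.08, adjusted p = 0.368). The same library was highest in the interferon-induced Psmb8, at 4.85, 8.29 and 6.56 FPKM in HS_AOS_FMT against 7.75, 50.7 and 7.55 in HS_control_FMT (log2 -1.08, adjusted p = 0.328).

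Markers of the kidney's own cell types did not separate the groups past the threshold, apart from Slc6a19 in the proximal tubule. The median log2 difference was 0.16 for 22 proximal tubule markers, -0.33 for 12 of the thick ascending limb, 0.11 for 12 of the distal convoluted and connecting tubule, -0.06 for 11 of principal cells, 0.11 for 12 of intercalated cells, 0.31 for 11 of podocytes, 0.08 for 13 of endothelium, 0.14 for 19 of fibroblasts and matrix and -0.03 for 13 of macrophages. In whole-kidney RNA fewer cells of a type and less RNA per cell cannot be told apart. The summed level of the proximal tubule markers was 107048 to 141492 FPKM in HS_AOS_FMT and 101099 to 151501 in HS_control_FMT. Most of each sum was 1 gene, Kap, at 92651, 99883 and 125838 against 98564, 90045 and 137570 FPKM (log2 -0.02, adjusted p = 0.99). The sums therefore say little about the other proximal tubule markers. The summed level of thick ascending limb markers was 1055 to 1695 FPKM in HS_AOS_FMT and 1411 to 2195 in HS_control_FMT. Among these cell types the sums of the distal convoluted and connecting tubule did not overlap, at 1615 to 1940 FPKM in HS_AOS_FMT and 2138 to 2315 in HS_control_FMT. That gap rested on the most abundant of the 12, Klk1, a kallikrein, at 1062, 918 and 1144 against 1327, 1223 and 1421 FPKM (log2 -0.35, adjusted p = 0.271): without it the sums were 693 to 878 and 716 to 1019, and 7 of the 12 differences were above 0. Slit diaphragm gene Nphs1 was at 4.57, 4.73 and 5.27 against 2.98, 3.89 and 2.25 FPKM (log2 0.55, adjusted p = 0.246). Of 17 adrenal markers 7 were tested, 4 of them (Cyp11a1, Cyp21a1, Hsd3b1 and Star) only through HS_AOS_FMT, where they are high, and 0 were called by limma or had an unadjusted p under 0.05. Cyp11a1, the first enzyme of steroid synthesis, was at 1.09, 63.8 and 10.6 FPKM against 0, 0.03 and 0.04 (log2 3.51, adjusted p = 0.282). The part of these tissue differences in the called genes was not tested.

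**Figure D4:**
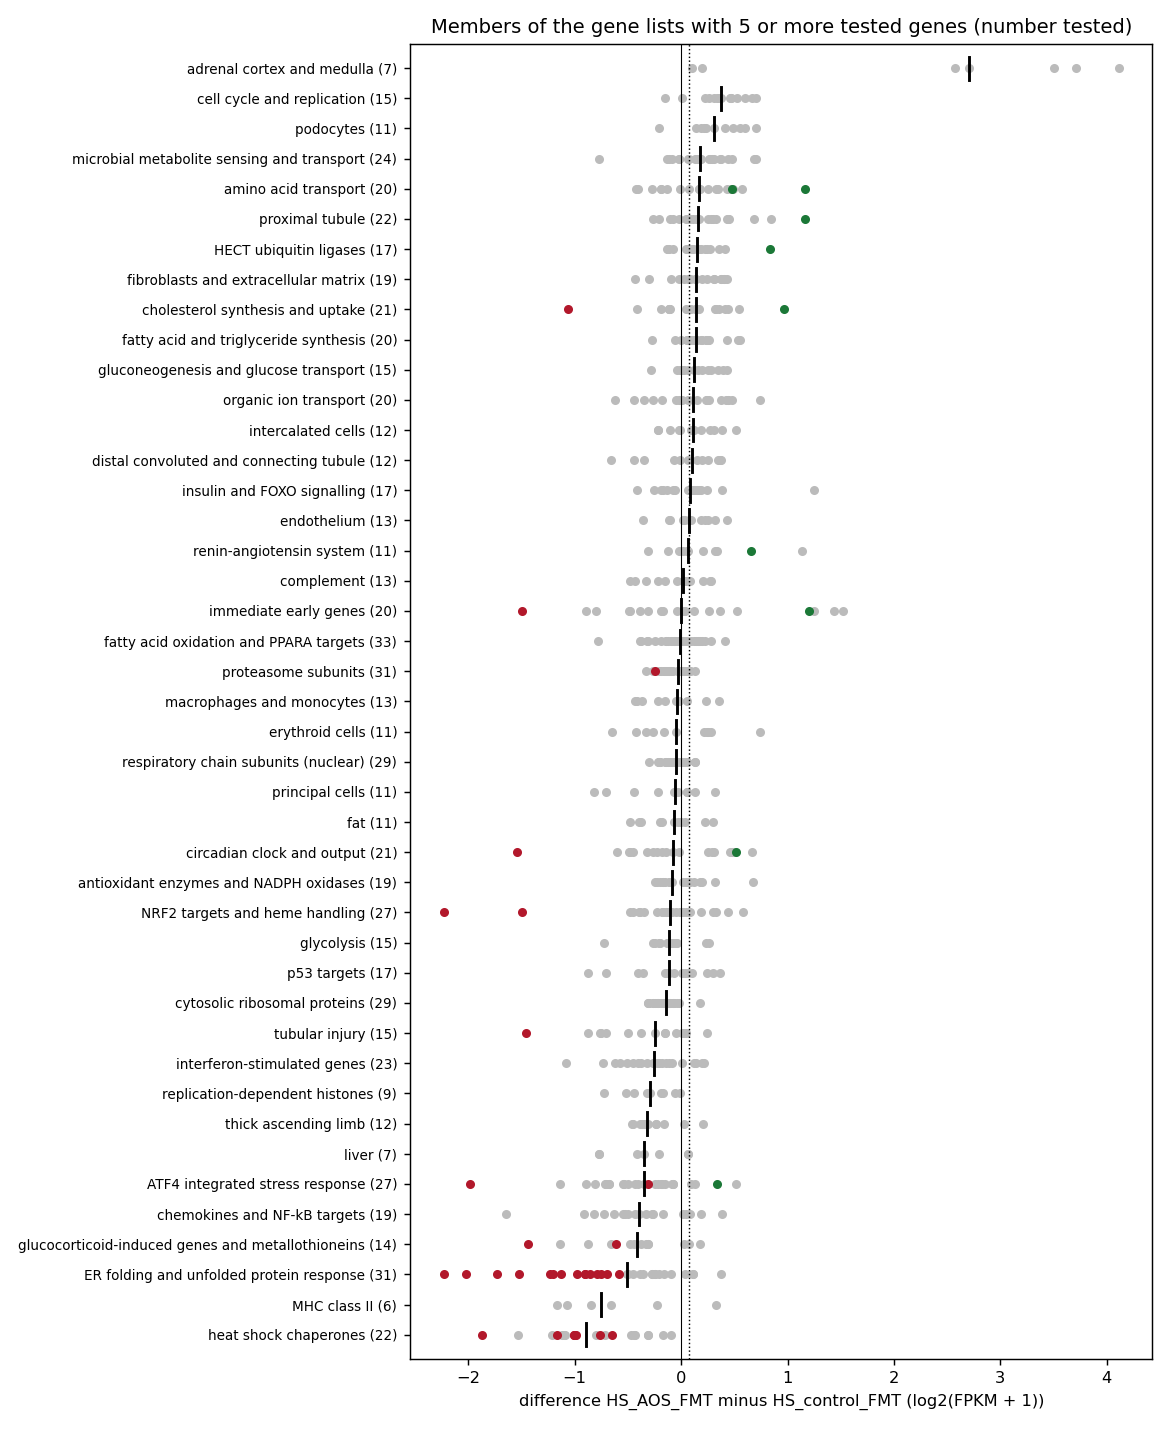
Log2 differences (HS_AOS_FMT minus HS_control_FMT, horizontal axis) of the tested members of each gene list with at least 5 of them, with called genes in green (higher) or red (lower), others in grey, the list's median as a bar and the median of all tested genes as a dotted line. ER folding holds 15 red points and heat shock chaperones 7, and the adrenal list none. Of the 7 adrenal points 4 are genes tested only through HS_AOS_FMT, where they are high.

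To see which of the transfer groups stood nearer to kidneys without a transfer, the mean of another group was placed on the line between the transfer means, gene by gene, with 0 at HS_control_FMT and 1 at HS_AOS_FMT. For the 134 genes called lower the median position of HS was 0.64 and that of control 0.89, and the HS mean was nearer to HS_AOS_FMT for 77 of them (57.5%), the control mean for 97 (72.4%). Over all tested genes these shares were 48.0% and 53.1%. For the 15 ER genes called lower, HS was nearer to HS_AOS_FMT in 14 (median position 0.75) and control in 15 (0.98), and for the 7 heat shock genes HS in 6 and control in 7. The Hspa5 means were 256 ± 68.8 FPKM for HS and 223 ± 63.2 for control, both near the 219.9 ± 43.8 of HS_AOS_FMT and not the 505 ± 74.9 of HS_control_FMT. Nfil3 was the other way, at 11.2 ± 5.48 in HS, near the 12.3 ± 4.14 of HS_control_FMT, while HS_AOS_FMT was at 3.45 ± 0.906. For the 365 genes called higher the median position was 0.51 for HS, about midway, and 0.64 for control. The HS mean was nearer to HS_AOS_FMT for 193 of them (52.9%) and the control mean for 240 (65.8%). These positions are descriptions with no test, and 1 HS and 1 control library also carry adrenal transcripts, with summed marker levels of up to 844 and 1080 FPKM.

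HS kidneys given AOS itself were set on the same line, a comparison chosen after the data had been seen. The HS_AOS mean was nearer to HS_AOS_FMT for 351 of the 365 genes called higher (96.2%) and 127 of the 134 called lower (94.8%), against 71.6% of all tested genes, and its median positions were 0.97 and 1.02. The median position over all tested genes was itself 0.99. After correction for GC content and length it was nearer for 337 of 358 and 128 of 134, against 68.2% of all tested genes. All 15 ER genes and all 7 heat shock genes called lower were nearer to HS_AOS_FMT, and 12 of the 15 and 7 of the 7 lay below both transfer means. Hspb1 was at 16.4, 13.7 and 18.3 FPKM in HS_AOS 1, 2 and 3, below each HS_AOS_FMT library, and Hmox1 at 28.8, 38 and 47.2. Jun was an exception among the named genes, at 12.1, 9.91 and 10.1 FPKM in HS_AOS, below every HS_control_FMT library. Deviations of a library from the mean of all, ranked against GC content, gave a correlation below 0 in all 3 HS_AOS_FMT libraries (-0.0874, -0.149 and -0.440) and in HS_AOS 2 and 3 (-0.260 and -0.621), above 0 in HS_AOS 1 (0.124), and from -0.0147 to 0.00302 in HS_control_FMT.

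**Figure D5:**
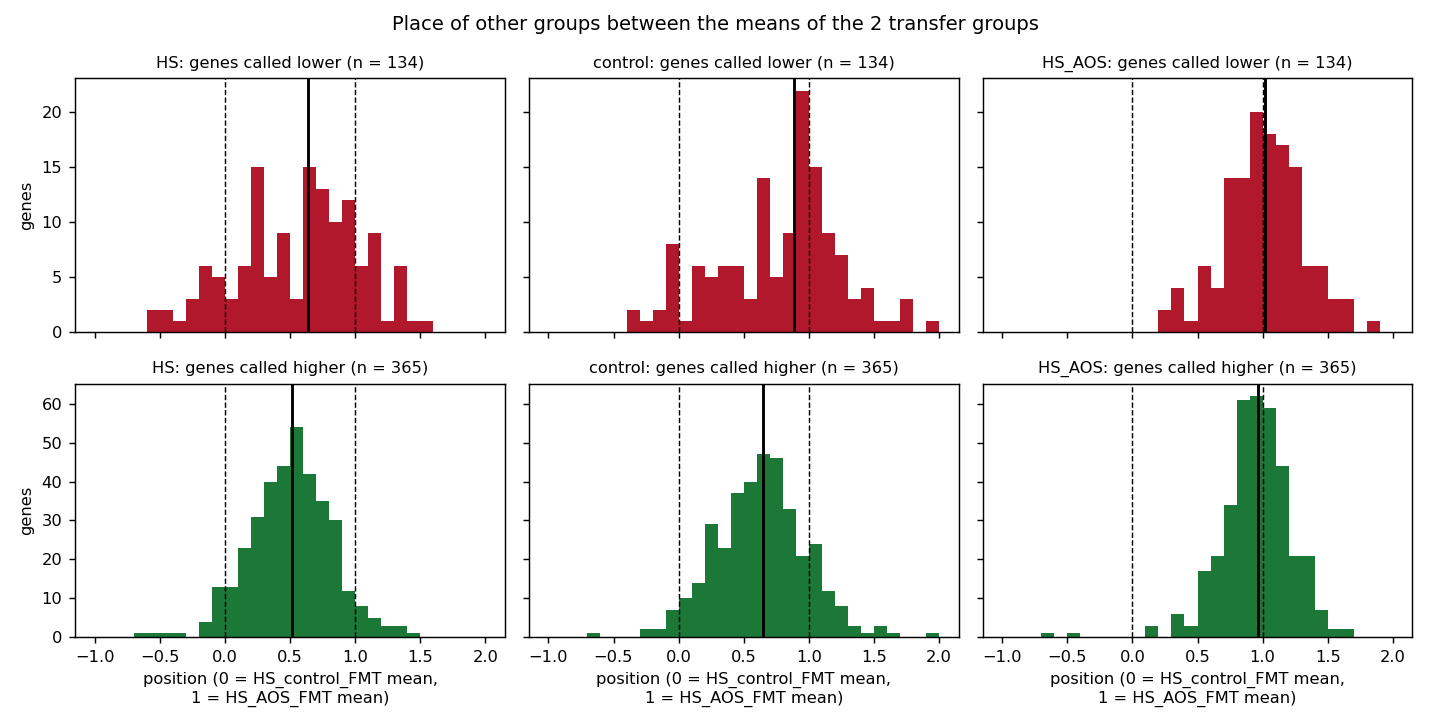
Number of called genes (vertical axes) by the position of the HS, control and HS_AOS means between the means of HS_control_FMT (0) and HS_AOS_FMT (1), for genes called lower (top) and higher (bottom), with the median as a solid line and positions beyond the axis drawn in its outermost bins. The HS_AOS positions gather near 1 in both rows, with medians 1.02 and 0.97, and those of HS spread more widely, with medians 0.64 and 0.51.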

How the data were processed

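Kidney RNA of 18 samples was measured by sequencing, 3 in each of 6 groups, and 6 samples enter the comparison. The authors deposited 1 table of FPKM values per gene and sample, to 2 decimals. Bowtie 0.12.2 and the genome build mm10 are named in the submitters' processing notes; the program that made the FPKM values is not given in the sources used here. No counts were used, so the depth is unknown and a count test was not run. Here, log2(FPKM + 1) was fitted with limma 3.58.1 in R 4.3.3 (trend and robust options) over all 18 samples with 1 mean per group and 12 residual degrees of freedom, which shares the spread among groups. Genes with at least 1 FPKM in 3 of the 6 samples were tested, and p-values were adjusted by Benjamini-Hochberg over 11774 genes with a threshold of 0.05. A call is an adjusted p under that threshold. Fold changes are on the log2(FPKM + 1) scale, which understates those of low genes. An adjusted p printed for a library left out or for another setting comes from the same test.

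The genes named are the 12 higher and 12 lower with the largest difference among called genes whose groups do not overlap and whose higher mean is at least 2 FPKM (predicted genes and pseudogenes left out), up to 6 called members of each list or 2 where none was called, and anchor genes of the lists. The comparison, the gene lists and the motifs were chosen with earlier results of these data known. Gene positions, transcripts and promoter windows are those of RefSeq, GRCm38. GC content and length were known for 99.11% of the tested genes. Alternatives were the scaling, filter, pseudocount, samples in the fit, array weights, GC and length trend, replicate block and each library left out. The planned description of protein ends was not run. On simulated data with 200 of 11774 genes changed, the test recovered 92% of 2-fold and 98% of 4-fold changes with 17 false calls.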

Additional observations from a re-analysis of the deposited data

How the results depend on the processing

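No called gene changed sign under any setting in which it was tested. For 498 of the 499 the groups did not overlap, so omitted libraries, the filter or the pseudocount could not have reversed the sign. Against 499 calls (365 higher, 134 lower), the counts were 215 (131 and 84) with only the 6 samples in the fit, 325 (178 higher) after quantile normalization, 2448 (1686 and 762) with array weights, whose estimate did not reach its convergence tolerance, and 1157 (916 and 241) with control 3 out of the fit. With HS_AOS_FMT 2 and 3 both left out, the lone library being assumed to vary like the other groups, 3 genes were called (1 higher, 2 lower). After correction for GC content and length 227 were lower, with medians set equal 231 were lower, and with a filter of 5 FPKM 239 were higher. A log2 difference of at least 1 left 39 (13 and 26). Leaving out 1 library gave 64 to 259 calls, 35 to 190 higher and 29 to 95 lower, the last from 29 to 69 apart from HS_control_FMT 3. The ER list had 15 members lower as reported, 1 without HS_AOS_FMT 2 and 3, 7 at a log2 difference of at least 1 and 8 to 14 with 1 library left out. The heat shock list had 7, then 0 without HS_AOS_FMT 2 and 3, 17 with array weights, 13 with control 3 out of the fit, 4 at a log2 difference of at least 1 and 1 to 6 with 1 library left out. The causes of these shifts were not tested.

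Deviations of same-numbered libraries from their group means correlated at -0.243, 0.0898 and 0.0156, and those of differently numbered libraries at -0.227 to 0.189. Deviations from a mean of 3 samples are tied to each other, so these values cannot show whether the samples were paired. With the replicate block 301 genes were called, 206 of them higher, of which 298 were among the 499, and with the replicate block together with that correction 214 were higher. Of 5954 values of 275 named genes under alternatives, 5212 kept direction and side of the threshold, 589 lost the call, 121 gained it, 32 untested values moved and 0 reversed. Of 1032 list medians 50 moved by more than their spread. Without counts, a limit set by depth could not be given.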

Other observations

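Groups of genes beyond the lists above were assembled after the values of this comparison had been seen. Their counts are descriptions and support nothing further. Of 64 tested genes for building the primary cilium, the sensory antenna of tubule cells, 15 were higher in HS_AOS_FMT and 0 lower, 57 differences were above 0 and the median log2 difference was 0.29, against 0.07 over all tested genes. Of all tested genes 3.1% were called higher. After correction for GC content and length 9 were higher, with medians set equal 10, and with 1 library left out 2 (without HS_AOS_FMT 1 or 2), 3 (without any HS_control_FMT library) or 10 (without HS_AOS_FMT 3). Cc2d2a, of the ciliary transition zone, was at 4.38, 4.33 and 3.25 FPKM in HS_AOS_FMT against 2.01, 2.14 and 1.58 in HS_control_FMT (log2 difference 0.77, SE 0.121, adjusted p = 0.00485). Every HS_AOS_FMT library lay above every HS_control_FMT library for Cc2d2a, a separation shared by 498 of all called genes in 1 direction or the other. The call of Cc2d2a by limma held without any 1 of the 6 libraries.

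Among genes called lower, 5 of 20 cytosolic aminoacyl-tRNA synthetases, which load amino acids onto tRNA, were lower (Yars, Cars, Aars, Iars and Sars), against 1.14% of all tested genes. The count was 8 after correction for GC content and length, 7 with medians set equal and 3 or 4 with 1 library left out. Yars was at 13.3, 12.6 and 14.4 FPKM in HS_AOS_FMT against 18.9, 20.4 and 18.7 in HS_control_FMT (log2 difference -0.50, SE 0.0713, adjusted p = 0.00331). Of 12 tested genes for folding and hydroxylating collagen 4 were lower (Plod1, P4ha1, Serpinh1 and P4ha2), of which Serpinh1, the collagen chaperone HSP47, was at 32.1, 30.0 and 38.6 against 77.8, 77.8 and 51.8 FPKM (adjusted p = 0.0212). Without HS_AOS_FMT 1, HS_AOS_FMT 2, HS_control_FMT 1 or HS_control_FMT 2 the count was 0. The call of Serpinh1 held only without HS_AOS_FMT 3 (0.0335) or HS_control_FMT 3 (0.0199). Of 32 partners of HSP90 and HSP70 in the cytosol 14 were lower, 12 after that correction and 11 with medians set equal, and some of these are also on the heat shock list. The count was 2 without HS_AOS_FMT 2 (Dnajb2 and Ahsa1), and 3 to 9 without another library. Dnajb2, a J-domain partner of HSP70, was at 15.2, 17.2 and 19.8 against 34.3, 32.7 and 29.5 FPKM (log2 difference -0.85, SE 0.121, adjusted p = 0.00325), a call that held without any 1 library.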
